A study of Mus musculus with 2 samples.

Results

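The genes examined were 7 members of the Ly6 family of small surface proteins (Ly6a, Ly6c1, Ly6c2, Ly6d, Ly6e, Ly6h and Ly6k) together with Thy1, chosen by gene name in the deposited expression table. All 8 names were found once each among its 55414 genes. RNA sequencing had been done on NHOS cells, a mouse osteosarcoma line, after transfection with IL10RB, which encodes a receptor chain shared by interleukin-10 and related cytokines, and after mock transfection as the control. Both cultures grew in serum-supplemented DMEM under selection with G418, and both libraries were made from total RNA by SMART-Seq v4 cDNA amplification. The sources used here do not give the species of the IL10RB construct, its promoter or whether the transfectant is 1 clone or a pool. Each condition has 1 library, so there is no test and no SD, and each difference is between 2 libraries without a replicate check.

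Ly6 proteins are short, disulphide-rich domains that are held on the outer leaflet of the plasma membrane by a glycosylphosphatidylinositol (GPI) lipid anchor, and several of them are induced by interferons. In mice Ly6a, also called Sca-1, marks haematopoietic stem cells and mesenchymal progenitors, and the Ly6C proteins mark monocytes and some T cells. Thy1, also called CD90, is a GPI-anchored immunoglobulin-fold protein of thymocytes, neurons and mesenchymal cells, and is widely used as a marker of mesenchymal stromal cells.

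The estimated counts summed to 23898132 in the transfectant library and 18766072 in the mock library, and were scaled to CPM, a count normalised for the depth of its library. Il10rb itself was at 67.5 CPM in the transfectant and 26.2 CPM in mock. Osteoblast transcripts were present in both libraries: of 13 listed markers 11 were past 50 counts in a library, 4 of them (36.4%) were higher by 2-fold or more in the transfectant, Ibsp, Bglap, Bglap2 and Spp1, and 0 were lower. Ibsp, a bone matrix protein, had 3643 counts in the transfectant and 312 in mock, and the transcription factor Sp7 had 4025 in the transfectant and 3366 in mock. Of the 11952 genes with at least 50 counts in 1 library, 19.7% were higher in the transfectant by 2-fold or more, and 11.9% were lower by that much. The median log2 fold of these genes was 0.07. Folds are ratios of CPM, transfectant over mock, and log2 folds are of CPM plus 0.5. The exact 95% intervals cover counting error only and take reads as independent.

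Of the 8 genes, Ly6e, Ly6a and Ly6c1 had at least 50 counts in 1 library, and these 3 were higher in the transfectant by 2-fold or more, beside the 19.7% of all genes, while 0 were lower, beside 11.9%. Ly6c1 reached 50 counts in the transfectant alone. Ly6c2 was detected at a low level in the transfectant, and Ly6d, Ly6h, Ly6k and Thy1 had 0 or 1 count in each library. The 4 genes above 1 count were next to one another among the members, in a stretch of 157 kb on chromosome 15 that also holds other genes. In bulk RNA, more cells with a transcript and more transcript per cell cannot be told apart.

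Sequence likeness decides how far reads can be told apart, so the coding sequences (without the stop codon, from GENCODE transcripts on GRCm38) are given for the members that were detected. Ly6c1 and Ly6c2 both have 393 coding bases and were identical at 97.7% of them. The first 270 of these bases are shown, with the 7 of the 9 differences that fall among them in capitals.
Ly6c1: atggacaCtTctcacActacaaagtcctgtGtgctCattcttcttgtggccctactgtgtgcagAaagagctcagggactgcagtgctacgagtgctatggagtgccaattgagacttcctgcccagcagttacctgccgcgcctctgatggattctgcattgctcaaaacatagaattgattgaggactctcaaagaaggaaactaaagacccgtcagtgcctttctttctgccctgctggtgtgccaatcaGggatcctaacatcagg
Ly6c2: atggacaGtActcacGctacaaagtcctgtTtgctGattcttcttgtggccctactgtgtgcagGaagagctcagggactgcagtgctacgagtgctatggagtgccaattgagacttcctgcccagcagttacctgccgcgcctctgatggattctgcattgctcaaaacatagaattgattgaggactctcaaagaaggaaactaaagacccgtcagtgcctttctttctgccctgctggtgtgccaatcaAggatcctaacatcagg
Of those 9 differences, 6 lie before base 66, and the bases from 66 to 253 are a run of 188 without any, so a read that lies within it cannot be assigned to either gene by its letters. The first 120 coding bases of Ly6a, of Ly6f (a gene of the same cluster) and of Ly6e are given next, with capitals where a base differs from Ly6c1 at the same position.
Ly6a: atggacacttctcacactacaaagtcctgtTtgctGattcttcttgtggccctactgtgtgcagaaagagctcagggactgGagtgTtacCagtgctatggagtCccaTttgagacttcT
Ly6f: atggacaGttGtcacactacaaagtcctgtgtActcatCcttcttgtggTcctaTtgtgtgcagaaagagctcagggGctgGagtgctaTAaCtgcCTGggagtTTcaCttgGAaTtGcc
Ly6e: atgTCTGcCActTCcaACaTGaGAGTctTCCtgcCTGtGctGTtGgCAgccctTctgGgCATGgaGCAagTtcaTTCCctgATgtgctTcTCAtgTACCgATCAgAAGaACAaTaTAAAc
Ly6a differed from Ly6c1 at 8 of these 120 positions and Ly6f at 21, whereas Ly6e differed at 67. Over whole coding sequences after alignment, Ly6a was 81.8% identical to Ly6c1, 84.6% to Ly6f and 86.3% to Ly6i, and Ly6e was 49.7% identical to Ly6c1. Thy1, which belongs to another fold family, was 46.5% identical to Ly6c1, and the Ly6 gene Ly6k was 46.3% identical to it.

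**Figure D1:**
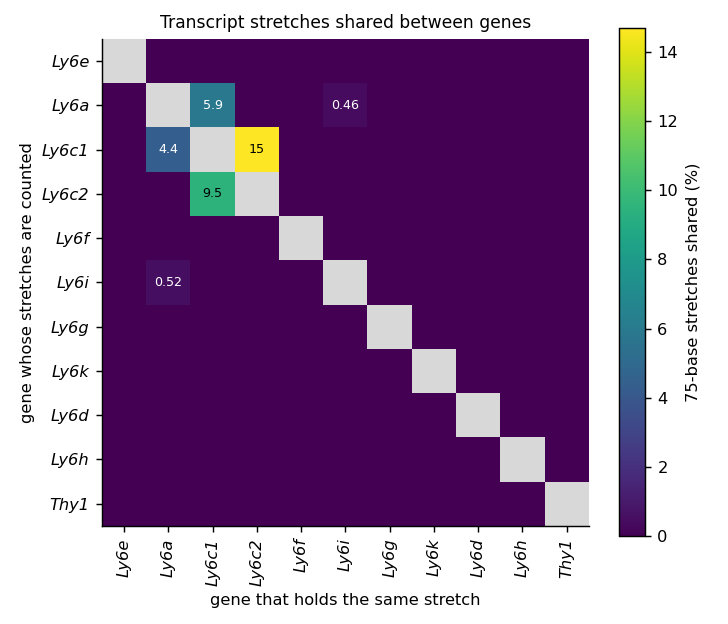
Share of the 75-base stretches of each gene's transcripts (rows) that also occur in transcripts of another gene (columns), in percent, in GENCODE transcripts on GRCm38; dark purple cells are 0 and grey cells are the gene itself. A match of the reverse complement was counted too. Ly6c1 shared 14.7% of its stretches with Ly6c2, and Ly6e and Thy1 shared none with any gene drawn.

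Counted as 75-base stretches of all annotated transcripts, 19.0% of those of Ly6c1 also occurred in another gene, mostly in Ly6c2 (14.7%), and 9.46% of those of Ly6c2 occurred in Ly6c1. A match of the reverse complement of a stretch was counted too. Ly6a shared 5.87% of its stretches with Ly6c1. For Ly6e and Thy1 the share was 0, over 4384 and 3114 stretches. In the deposited counts, Ly6c1 had 710.2 and Ly6c2 26.8 estimated counts in the transfectant, which add up to 737, a whole number, while the counts of Ly6a and Ly6e were whole in both libraries. The split between Ly6c1 and Ly6c2 is an estimate, so their sum is given too.

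Ly6e encodes a widely expressed member that in mice is the placental receptor for syncytin A and that restricts entry of coronaviruses. The gene (ENSMUSG00000022587.15) lies on the plus strand of chromosome 15 between positions 74826900 and 74831754. All gene positions are those of the deposited table, whose genome build the sources used here do not name. Ly6e had 5482 counts in the transfectant and 1112 in mock. These were 226 CPM in the transfectant (95% interval 220 to 232) and 60.3 CPM in mock (56.8 to 63.9), so that Ly6e was 3.74-fold higher (3.51 to 3.99). By TPM, which also divides by transcript length, it had the highest level of the 8 genes in both libraries.

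Ly6a (ENSMUSG00000075602.11, minus strand, 74866726 to 74869880) had 1918 counts in the transfectant and 138 in mock. That is 78.9 CPM in the transfectant (75.4 to 82.5) and 7.48 CPM in mock (6.28 to 8.84). Its log2 fold of 3.31 placed it at rank 168 of the 11952 genes in order from the highest fold. Ly6e stood at rank 861 in the same order.

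Ly6c1 and Ly6c2 encode the Ly6C antigens. Ly6c1 (ENSMUSG00000079018.11, minus strand, 74915867 to 74920679) was at 29.2 CPM in the transfectant (27.1 to 31.4) and at 1.57 CPM in mock (1.05 to 2.26), from 710 counts in the transfectant and 29 in mock. With a log2 fold of 3.84 it had the largest fold of the 3 members past 50 counts and stood at rank 93. Ly6c2 (ENSMUSG00000022584.15, minus strand, 74980007 to 74983819) had 27 counts after rounding in the transfectant and 1 in mock. Its ratio of 20.5 had a counting interval from 3.38 to 839, so the size of its difference was not determined at this depth. That interval takes the estimated split from Ly6c1 as known. Summed over both genes, the counts were 737 in the transfectant and 30 in mock, an 18.6-fold difference (12.9 to 27.8). Ly6c1 held 96.4% of this sum in the transfectant, and in mock the 30 counts held 1 of Ly6c2, too few to compare the split.

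**Figure D2:**
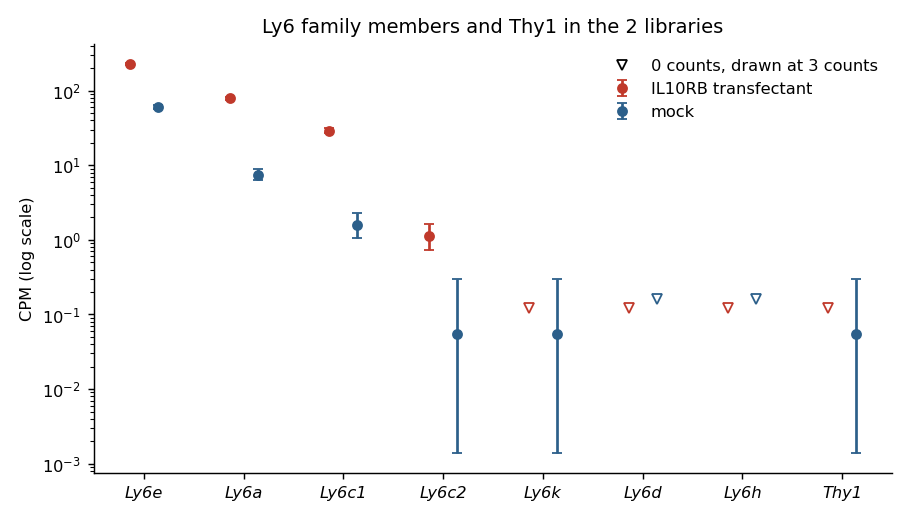
Level of each member in CPM, on a log axis, in the IL10RB transfectant library (red) and the mock library (blue), with exact 95% Poisson intervals; open triangles mark 0 counts and are drawn at the value of 3 counts. Ly6e, Ly6a and Ly6c1 are higher in the transfectant with intervals that do not overlap. Those of Ly6c2 do not overlap either, but it is below 50 counts and its counts are an estimated split with Ly6c1. The other members are at 0 or 1 count.

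The remaining members were at the limit of detection. Ly6d, which in mice marks keratinocytes and early B-lineage cells, and Ly6h, a modulator of nicotinic acetylcholine receptors in brain, had 0 counts in both libraries. A count of 0, taken as up to 3 counts, allows 0.123 CPM in the transfectant and 0.163 CPM in mock. The upper limit of the exact 95% interval, which is 2-sided, is 0.152 CPM in the transfectant and 0.200 CPM in mock. Ly6k, which acts in sperm, had 0 counts in the transfectant and 1 in mock. It overlaps the lncRNA gene Gm17189, which lies on the opposite strand. With reverse complements counted, 24.5% of the 75-base stretches of Ly6k also occur in that gene. Strand was not stated, so its single count could stem from either gene. Thy1 (ENSMUSG00000032011.6, plus strand of chromosome 9, 43954681 to 43959876) likewise had 0 counts in the transfectant and 1 count in mock, which is 0.0542 CPM (0.00137 to 0.302). No difference between the libraries was detectable for these 4 genes.

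Compared per length by the deposited TPM values, the order of levels was Ly6e, Ly6a, Ly6c1 and Ly6c2 in the transfectant, at 327, 156, 58.4 and 4.51 TPM. In mock the first 3 kept this order, at 92.2, 14.6 and 3.14 TPM, and Thy1, Ly6c2 and Ly6k followed at 0.354, 0.234 and 0.184 TPM from 1 count each, which cannot be ranked. Ly6e stood above 95.1% of the genes past 50 counts in the transfectant and above 83.0% in mock. Ly6a stood above 89.3% in the transfectant and 45.2% in mock. Ly6c1 stood above 74.7% in the transfectant and 17.4% in mock. The summed TPM of the 8 genes was 545 in the transfectant and 111 in mock. Ly6e made up 59.9% of that sum in the transfectant and 83.3% in mock, and Ly6a made up 28.5% in the transfectant and 13.2% in mock.

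**Figure D3:**
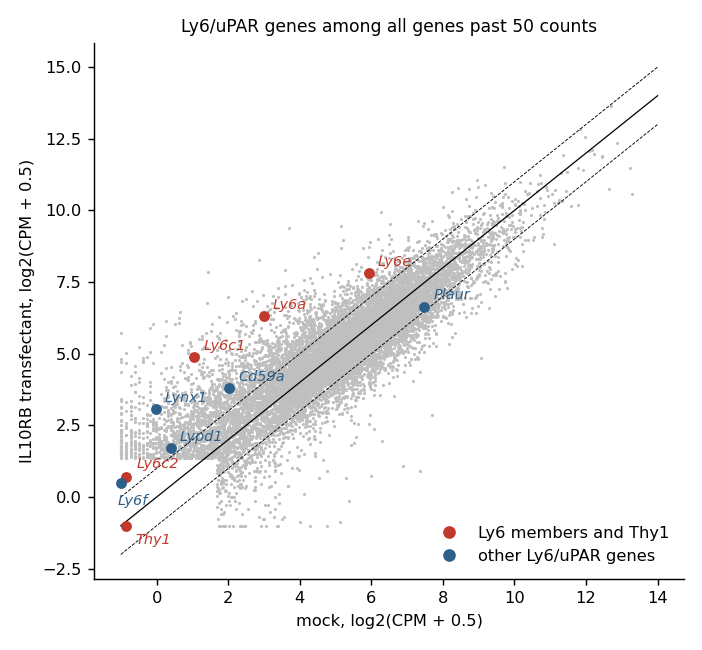
Level of each gene in the transfectant (vertical) against mock (horizontal), both as log2 of CPM plus 0.5, for the 11952 genes with at least 50 counts in 1 library (grey), with the named members in red and named other Ly6/uPAR genes in blue, among which Ly6c2, Thy1 and Ly6f are below 50 counts; the solid line marks equal levels and the dashed lines 2-fold. Ly6e, Ly6a and Ly6c1 lie above the upper dashed line and Thy1 lies in the lower left corner.

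The genes whose levels in the 2 libraries were nearest to those of a member, by distance over log2 CPM plus 0.5 among 11099 named genes, were Pla1a, S1pr1 and C1qtnf1 for Ly6a. Pla1a was at 79.1 CPM in the transfectant and 7.64 CPM in mock, almost the values of Ly6a. Slit2, C1rl and Carns1 were nearest to Ly6c1, with Slit2 at 30.4 CPM in the transfectant and 1.73 CPM in mock. Idi1, Tagln and Metrnl were nearest to Ly6e, with Idi1 at 231 CPM in the transfectant and 62.8 CPM in mock. With 2 libraries, such likeness is over 2 values only.

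By position, the 7 Ly6 members span 805 kb of chromosome 15. Among the members, the 4 detected ones (Ly6e, Ly6a, Ly6c1 and Ly6c2) follow one another, with distances of 34.97, 45.99 and 59.33 kb in which other genes lie. Ly6k lies 155 kb before Ly6e, and Ly6h 439 kb after Ly6c2. Of the 35 other genes listed within the span, 30 had 0 counts in both libraries and 0 had 50 counts. Among them were Ly6f, with 22 counts in the transfectant and 0 in mock, Ly6i with 1 in the transfectant and 0 in mock, and Ly6m with 0 in the transfectant and 4 in mock, while Ly6g, the neutrophil antigen, had 0 in both.

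Outside the span but within 500 kb of it, 18 genes were past 50 counts. Of these, 10 (55.6%) were higher by 2-fold or more in the transfectant and 0 were lower. Their median log2 fold was 1.10. On the rest of chromosome 15, 26.9% of 464 genes were higher and 5.603% lower by this measure, and the median was 0.37. The following neighbours are named with their values in view. Before the members lie Arc, Jrk, Them6 and Lynx1, all at least 2-fold higher, with Jrk at 507 counts in the transfectant and 89 in mock. After them, Gsdmd, which encodes the pore-forming protein gasdermin D, had 2425 counts in the transfectant and 212 in mock and was 8.68-fold higher (7.54 to 10.0). Zfp41, Mafa, Tigd5, Zfp707 and Fam83h were the others past 2-fold. Of the 10, Arc, Them6, Lynx1, Zfp41, Mafa and Tigd5 reached 50 counts in the transfectant alone. Around Thy1 on chromosome 9, 7 of 23 genes past 50 counts (30.4%) were higher by 2-fold or more, and 2 (8.70%) were lower, Hyou1 and Gm9830, with a median of 0.41. Over all of chromosome 9, the shares were 21.9% and 9.71% of 690 genes, with a median of 0.13. C1qtnf5, 58.7 kb away, was 6.28-fold higher (5.64 to 7.01). Of the 7, Pdzd3, Gm20444 and Gm26737 reached 50 counts in the transfectant alone.

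**Figure D4:**
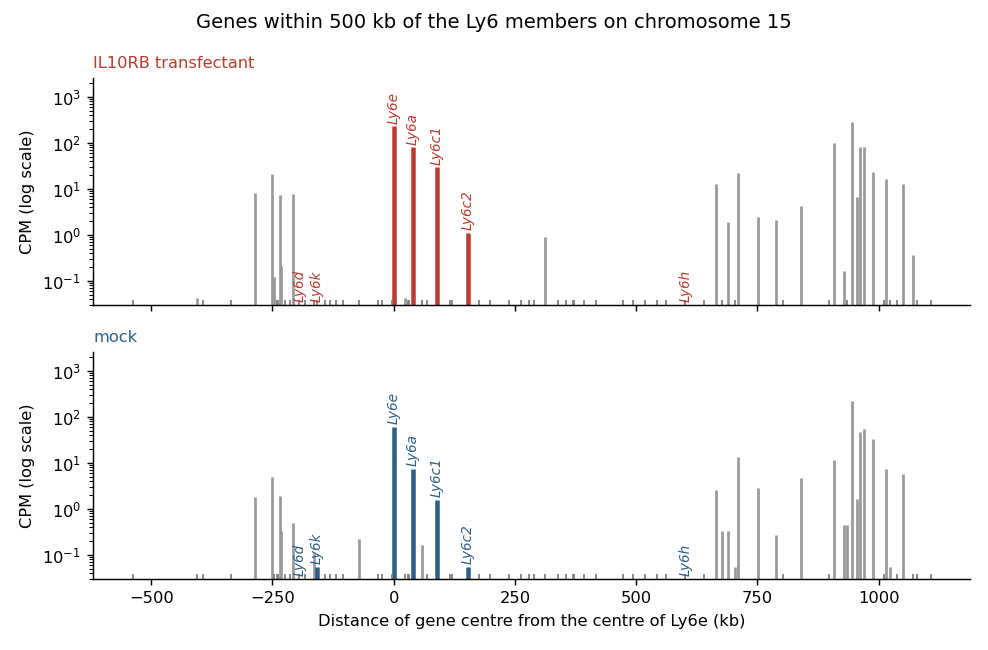
Genes within 500 kb of the Ly6 members on chromosome 15, placed by distance from Ly6e in kb (horizontal), with their level in CPM on a log axis as a line from the base; members are coloured and named, other genes are grey, and ticks at the base mark genes at 0 counts. Ly6e, Ly6a, Ly6c1 and Ly6c2 stand near one another among genes that are mostly at 0, and each is taller in the upper panel (transfectant) than in the lower one (mock).

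Promoter windows from RefSeq on GRCm38.p6 matched 2 of the 8 members, Ly6c1 and Ly6c2, with 2 annotated starts each, and those of Ly6a, Ly6e, Ly6d, Ly6h, Ly6k and Thy1 were not used here. They are shown because the 2 genes are near-copies in coding sequence and were both detected. The 250 bases before the outer start of each are given in the direction of transcription, from the minus strand, at chr15:75048838-75049087 for Ly6c1 and chr15:75111972-75112221 for Ly6c2, with the TATAAA match of Ly6c1 in capitals.
Ly6c1: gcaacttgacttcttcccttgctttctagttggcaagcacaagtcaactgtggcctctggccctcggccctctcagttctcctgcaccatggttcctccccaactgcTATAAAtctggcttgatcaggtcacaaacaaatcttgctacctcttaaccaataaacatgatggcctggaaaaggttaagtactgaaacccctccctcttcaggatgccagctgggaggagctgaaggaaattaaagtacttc
Ly6c2: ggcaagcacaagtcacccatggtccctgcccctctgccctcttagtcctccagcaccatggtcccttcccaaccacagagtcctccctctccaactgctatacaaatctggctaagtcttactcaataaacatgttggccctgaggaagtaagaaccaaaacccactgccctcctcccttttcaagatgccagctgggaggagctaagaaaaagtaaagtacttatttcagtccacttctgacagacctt
Aligned over the whole outer windows of 300 bases, which run to 50 bases past the start, 208 of 334 columns (62.3%) were identical. Columns with a gap were counted as differences, and the 2 windows begin at different points of their shared sequence. The coding sequences aligned without gaps, so their 97.7% is not a like measure. Both strands were searched for the interferon-gamma activated site as TTCNNNGAA, for the interferon-stimulated response element as GAAA, any 2 bases and GAAA, and for TATAAA. These letters occur in 8.30%, 3.44% and 13.6% of all 32851 windows of that length. The only match in the 4 windows of these members was TATAAA at position -143 from the outer start of Ly6c1. A missing match says only that these letters are not in these windows.

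Other genes of the Ly6/uPAR domain family, which share the fold of Ly6 proteins, were mostly at 0 or low counts. Of 36 listed, 19 had 0 counts in both libraries. At least 50 counts in 1 library were found for 4, of which 3 were higher by 2-fold or more and 0 lower, and the median log2 fold of the 4 was 1.55, beside 0.07 for all genes. Of the 4, Lynx1 and Lypd1 reached 50 counts in the transfectant alone. With a floor of 200 counts, the median of the 2 genes left was 0.47. Summed over the list, the level was 126 CPM in the transfectant and 185 CPM in mock, mostly from Plaur. Lynx1, a modulator of nicotinic acetylcholine receptors, lies 9.01 kb before the first of the Ly6 members. It had 190 counts in the transfectant and 9 in mock, a ratio of 16.02 (8.26 to 35.6). Cd59a, which blocks the membrane attack complex of complement, was 3.77-fold higher (2.89 to 4.99), from 328 counts in the transfectant and 66 in mock. Lypd1 had 68 counts in the transfectant and 15 in mock, a ratio of 3.44 (1.95 to 6.48). With reverse complements counted, 16.3% of its 75-base stretches are shared with the gene Gpr39. Plaur, the urokinase receptor, was within 2-fold, at 99.7 CPM in the transfectant and 178 CPM in mock (ratio 0.561, 0.532 to 0.592).

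Below 50 counts, Ly6f was at least 5.56-fold higher in the transfectant when the 0 counts in mock are set at 3, and the lower limit of its exact interval was 4.16-fold. Pinlyp, with 13 counts in the transfectant and 0 in mock, was at least 3.29-fold higher by that floor, with a lower limit of 2.31-fold. Lypd8 had 0 counts in the transfectant and 11 in mock, and Lypd6b had 0 in the transfectant and 8 in mock. None of these 4 genes reached the 50 counts asked for a call. In this family, counts and TPM gave different sizes for Lynx1 and Lypd1. Lynx1 differed 16.02-fold by CPM and 4.14-fold by TPM, while Lypd1 differed 3.44-fold by CPM and 11.8-fold by TPM. Counts per TPM, relative to the median gene, differed 3.89-fold between transfectant and mock for Lynx1 and 0.291-fold for Lypd1, against 0.706 to 1.40 for the central 95% of genes. For Ly6e, Ly6a and Ly6c1 this value was 1.06, 0.993 and 1.00, so that their folds were nearly the same on either scale.

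Genes of pathways and cell types linked to the members were read from lists, each set beside the 19.7% of all genes higher, the 11.9% lower and the median of 0.07. Of 38 interferon-stimulated genes, a class that in mice includes Ly6a and Ly6e although they are not on this list, 32 were past 50 counts. Of these, 25 (78.1%) were higher by 2-fold or more and 0 were lower. Their median log2 fold was 1.77. Of the 25, Trim30a, Ifi27l2a, Gbp2, Usp18, Gbp3, Parp14 and Mx2 reached 50 counts in the transfectant alone. Of the 32, 31 had a log2 fold above 0, and the exception was Oasl2, at a ratio of 0.582 (0.516 to 0.655). Below 50 counts, ratios were 0.705 for Ifi44, 0.721 for Ifih1 and 0.915 for Rsad2, while Oas2, Ifitm1 and Mx1 had more counts in the transfectant. Trim30a had 352 counts in the transfectant and 2 in mock, and Ifi27l2a had 545 in the transfectant and 13 in mock. The interferon-inducible GTPase Igtp had 1944 counts in the transfectant and 72 in mock, and Lgals3bp had 8892 in the transfectant and 414 in mock. The log2 folds of Ly6a (3.31) and Ly6c1 (3.84) lay in the upper part of the range of this list, and that of Ly6e (1.89) near its median.

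Of 22 mesenchymal stromal and progenitor markers, 17 were past 50 counts. Of these, 10 (58.8%) were higher by 2-fold or more and 0 were lower, and the median was 1.07. S100a4, Vcam1, Lum and Pdgfra had the largest folds. Of the 17, 13 had a log2 fold above 0. Cd44 went the other way without reaching 2-fold, at a ratio of 0.520 (0.494 to 0.546). Pdgfra, the growth factor receptor often used beside Ly6a to sort mesenchymal progenitors, had 1513 counts in the transfectant and 224 in mock, and Vcam1 had 135 in the transfectant and 4 in mock. Thy1 and Ly6a, which are used together as mesenchymal markers in mice, stood apart in level here, with Ly6a at 1918 counts in the transfectant and Thy1 at 0.

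For GPI anchor synthesis, transfer and remodelling, 29 of 31 genes found were past 50 counts, 8 (27.6%) were higher by 2-fold or more and 1 was lower, and the median was 0.32. Pigv, a mannosyltransferase, was 5.10-fold higher by CPM (3.73 to 7.11) and 3.20-fold higher by TPM, and reached 50 counts in the transfectant alone. Mppe1, which trims the anchor after its attachment, was 4.14-fold higher (3.36 to 5.14). Piga and Pigh encode subunits of the enzyme of the first step, and they went opposite ways. Pigh had 363 counts in the transfectant and 72 in mock and was 3.83-fold higher, whereas Piga, the catalytic subunit, had 172 counts in the transfectant and 481 in mock, a ratio of 0.271 (0.227 to 0.324).

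Among 42 other GPI-anchored surface proteins, of which 41 were found, 20 were past 50 counts, 7 (35%) were higher and 1 lower, and the median was 0.25. Reck, a membrane inhibitor of matrix metalloproteinases, was 8.77-fold higher (6.996 to 11.1), and the glypican Gpc4 was 5.06-fold higher (4.38 to 5.88). Bst2, the interferon-induced virus tether known as tetherin, was 4.18-fold higher (3.77 to 4.63), and Rgma, a co-receptor for bone morphogenetic proteins, had 111 counts in the transfectant and 2 in mock. The lower gene was Efna1, named after its value was seen, with 767 counts in the transfectant and 1932 in mock. Alpl, the alkaline phosphatase of bone-forming cells and also named after its value was seen, had 36659 counts in the transfectant and 39365 in mock. Across the 197 genes that the deposited table annotates with an anchored component of the membrane, which include all 8 members, 66 genes other than members were past 50 counts, and 22 of those (33.3%) were higher and 3 lower.

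Thy1 binds integrins and syndecans and signals through raft kinases. Of 21 genes for such partners, 18 were past 50 counts, of which 2 (11.1%) were higher by 2-fold or more and 0 lower, and the median was 0.54. The 2 were Itgb3, an integrin subunit that binds Thy1 together with the alpha V chain, at 96 counts in the transfectant and 18 in mock, and Adgre5, at 294 in the transfectant and 101 in mock. Itga5 was within 2-fold at a ratio of 1.92 (1.80 to 2.04), and Itgb2 at 0.437 (0.278 to 0.678) was within 2-fold on the log2 scale of CPM plus 0.5.

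**Figure D5:**
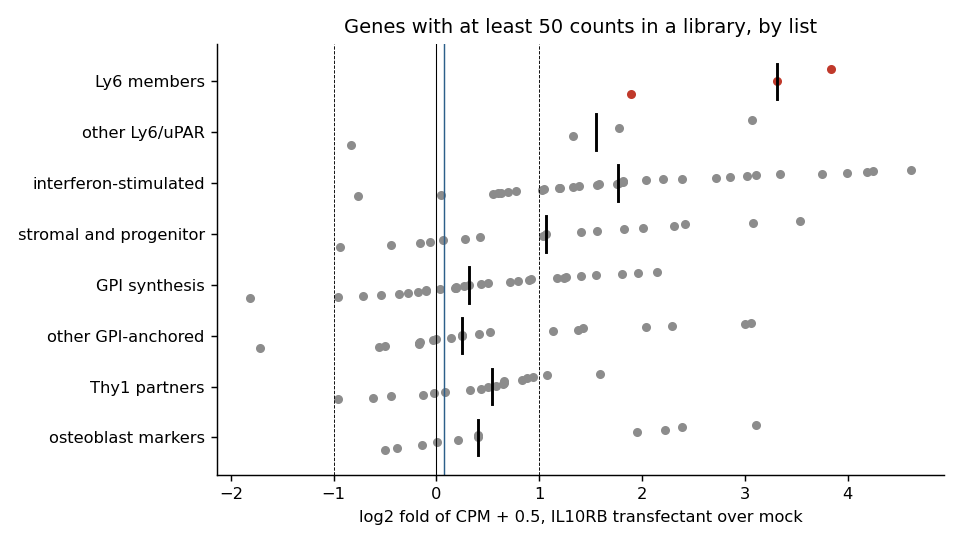
Log2 fold of CPM plus 0.5, transfectant over mock, for each gene with at least 50 counts in 1 library, by list, with members in red; black bars are list medians, the blue line is the median of all 11952 genes, the thin black line is 0 and dashed lines mark 2-fold. The interferon-stimulated list has a median of 1.77 and the list of Thy1 partners one of 0.54.

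Because Ly6 antigens and Thy1 are also markers of blood, skin and nerve cells, markers of those cells were read in the same libraries. Of 12 T and NK cell markers, 1 was past 50 counts, the kinase Lck, with 14 counts in the transfectant and 310 in mock. Cd3e had 0 counts in the transfectant and 13 in mock. Trac had 21 in the transfectant and 2 in mock, Nkg7 had 13 in the transfectant and 0 in mock, and Cd4, Cd8a, Cd2 and Cd5 had 0 in both. The summed level of this list was 2.14 CPM in the transfectant and 17.8 CPM in mock, and without Lck it was 1.56 CPM in the transfectant and 0.976 CPM in mock. Monocyte, macrophage and neutrophil markers summed to 34.5 CPM in the transfectant and 6.23 CPM in mock over 12 genes, of which 3 were past 50 counts. Lyz2 had 626 counts in the transfectant and 5 in mock, and Cd68 had 150 in the transfectant and 12 in mock. Csf1r was lower, with 24 in the transfectant and 57 in mock. Without Lyz2 the sum was 8.76 CPM in the transfectant and 5.96 CPM in mock, and in the transfectant this remainder was mostly Cd68. The defining genes Itgam and Tyrobp had 0 counts in both libraries, and the pan-leukocyte gene Ptprc had 0 in the transfectant and 27 in mock. B cell markers, of which 0 of 6 were past 50 counts, summed to 2.26 CPM in the transfectant and 0.867 CPM in mock, and without Blk to 0.823 CPM in the transfectant and 0.867 CPM in mock.

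Keratinocyte and epithelial markers summed to 1.36 CPM in the transfectant and 41.5 CPM in mock, mostly from Krt14, with 10 counts in the transfectant and 752 in mock. Without Krt14 the sum was 0.946 CPM in the transfectant and 0.759 CPM in mock. Neural markers summed to 10.9 CPM in the transfectant and 17.9 CPM in mock, and without Tubb3 to 10.7 CPM in the transfectant and 6.56 CPM in mock. Endothelial cells also express Ly6a and Ly6c1 in mice, and their markers summed to 3.29 CPM in the transfectant and 6.18 CPM in mock. Without Esam the sum was 2.43 CPM in the transfectant and 2.82 CPM in mock. Of 10 endothelial markers, 1 was past 50 counts (Esam, 21 in the transfectant and 62 in mock), and Cdh5, Tek and Tie1 had 0 in both. Of these sums, the endothelial one was lower in the transfectant with and without its leading gene. That of the myeloid list was higher both ways, but without Lyz2 it still holds Cd68. A sum without both genes was not taken. Lyz2 and Cd68 were the only genes of that list called higher, Csf1r was called lower, and Ptprc had counts in mock alone. The part of this list in the members' levels was not tested.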

How the data were processed

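RNA from 1 IL10RB-transfected and 1 mock-transfected culture of NHOS cells was sequenced after SMART-Seq v4 amplification, per the labels' protocols. The submitters' processing notes name DRAGEN, with no role or version. The sources used here name no annotation or genome build. Per the file headers, the deposited table holds an estimated count and a TPM value per gene and library. The estimated counts deposited by the authors carry no scaling, and 11.0% of genes had a fractional value in each library. The deposited TPM values were scaled for length and depth by the authors' pipeline. Amplified reads are not independent molecules, whereas the intervals take each read as an independent count. The intervals can therefore be too narrow even for counting error, and they do not cover the spread between cultures.

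Estimated counts were rounded to whole numbers and scaled with TMM factors of 1.02 (transfectant) and 0.983 (mock) from edgeR 4.0.16 in R 4.3.3, where 1 count is 0.0411 and 0.0542 CPM. Levels have exact Poisson and ratios exact conditional 95% intervals. A gene was called with at least 50 counts in 1 library and a fold of 2 on log2 of CPM plus 0.5, which understates low genes. No p-value was computed. The procedure was run on simulated counts drawn from the Poisson model that the intervals assume. That checked the calculation and not the spread between cultures. DESeq2 1.42.0 gave size factors for an alternative and was not used for a test. Other alternatives were other scalings, pseudocounts, floors and folds, the deposited TPM, unrounded counts and the sum of Ly6c1 and Ly6c2. Coding sequences, from the lowest-numbered coding transcript of each gene in GENCODE vM21, were aligned with Biopython 1.88.

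The members and lists were chosen with earlier results of these data known. The text names all 8 members, any Ly6/uPAR gene, defining cell markers, up to 4 genes per list by size of log2 fold, and the 3 genes nearest to each called member. Any further gene was named with its value in view. Sums of marker lists were also taken without the gene that differed most in CPM, a choice made after seeing the data.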

Additional observations from a re-analysis of the deposited data

How the results depend on the processing

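No paired analysis was possible because there was 1 library of each kind, and for the same reason no library could be left out. The log2 folds of Ly6a (3.09 to 3.38), Ly6c1 (3.13 to 4.13) and Ly6e (1.78 to 1.94) kept their direction under every scaling, pseudocount and unit tried. By more than 0.5 times the log2 width of the counting interval moved Ly6c1 with a pseudocount of 2, to 3.13, and Ly6e with upper quartile scaling, to 1.78. That scaling put the median of all genes at -0.04, against 0.07. Of the members, 4 were higher without a floor, with Ly6c2 added, and 2 at a fold of 4, where Ly6e was not called. The log2 fold of Ly6c2 ran from 0.60 with a pseudocount of 2 to 3.86 when summed with Ly6c1. Over all genes, a fold of 1.5 gave 3666 higher and 2853 lower, a fold of 4 gave 772 and 221, and no floor gave 2316 lower, as thresholds set. Other Ly6/uPAR genes counted 5 higher and 1 lower without a floor, 1 higher with a floor of 200 or a fold of 4, and 1 lower at a fold of 1.5. GPI synthesis genes counted 2 lower with upper quartile scaling or a pseudocount of 0.1, 3 lower at a fold of 1.5, and 1 higher and 0 lower at a fold of 4. Other GPI-anchored genes counted 3 lower without a floor, and 4 higher and 0 lower at a fold of 4. Stromal markers counted 1 lower with upper quartile scaling or a fold of 1.5, and 5 higher at a fold of 4. Interferon-stimulated genes counted 1 lower at a fold of 1.5 and 13 higher at a fold of 4. Thy1 partners counted 1 higher and 1 lower with upper quartile scaling, 1 lower with a pseudocount of 0.1, 0 higher with a pseudocount of 2 or a fold of 4, 1 higher in the deposited TPM or with a floor of 200, and 8 higher and 2 lower at a fold of 1.5. Apart from the effect of thresholds, the cause was not tested. The other 164 values for these counts and for the 3 called members moved by at most 1.5 times, or by less than 0.5 times that width. Depth limits Thy1, Ly6d, Ly6h and Ly6k, for which 3 counts were 0.123 CPM in the transfectant and 0.163 CPM in mock.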
